A study of Rattus norvegicus with 10 samples.

Results

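The tiles described here are windows of 1000 bp on chromosomes 1 to 20 of the rat genome in which nearly every sampled CpG was read as methylated. They were chosen by their own level: a tile was kept when it had a value in all 10 rats and its mean methylation over the 10 rats was at least 95%. The rule kept 4892 of 122392 tiles with a value in every rat on these chromosomes (3.997%), out of 176032 tiles in the whole table. The assay was reduced representation bisulfite sequencing (RRBS) of DNA from hippocampal tissue. In RRBS, MspI cuts DNA at CCGG sites and bisulfite then separates methylated from unmethylated cytosines. The high-capacity runner (HCR) group held 4 rats, numbered 1, 11, 15 and 19, and the low-capacity runner (LCR) group held 6, numbered 12, 18, 22, 24, 26 and 30. All were aged females of 23 to 24 months, from generation 44 of lines bred in parallel from N:NIH stock for running capacity, and none had been trained or given a wheel. Each rat gave 1 library and is 1 replicate, and further HCR libraries that the authors left out at quality control are not analysed here. The methods report no separate batch. They also report that libraries were pooled before bisulfite conversion, without stating which rats shared a pool. Each value is the percent of methylated calls among the CpGs of the tile, and since no read counts stand beside it, the depth behind each percentage is unknown.

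In mammals, methyl groups on CpG cytosines are set by DNMT3A and DNMT3B, copied at replication by DNMT1 and oxidized by TET enzymes. Most CpGs outside CpG islands carry the mark, including those in transcribed gene bodies and in repeats, while CpG islands at promoters are mostly free of it. A percentage from hippocampal tissue averages over neurons, glia and vessel cells, so a value near 100% means that nearly all sampled copies were read as methylated. A change within cells of 1 type and a change in the proportions of cell types cannot be told apart in such tissue.

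The selected tiles lay close to the limit that defined them. Their means over the 10 rats ran from 95.0009% to 99.8%, with a median of 96.2% and quartiles of 95.6% and 97.1%. Of the 4892 tiles, 2009 (41.1%) were under 96%, 379 were at 98% or more and 36 at 99% or more. The members just inside the limit were on chromosome 14 from 7465001 to 7466000 (mean 95.0009%), on chromosome 1 from 8572001 to 8573000 (95.0014%) and on chromosome 3 from 28146001 to 28147000 (95.0034%), all coordinates being those of mRatBN7.2 (rn7). The tiles just outside it had means of 94.9997%, 94.9989% and 94.9984%. A mean over rats also hid single lower values. Of 48920 values, 35952 (73.5%) were at 95% or more, 1720 (3.52%) were under 90% and 46 were under 80%, each of these 46 in a different tile. The lowest was 69.4%, while 442 members were at 95% or more in every rat and 3450 (70.5%) at 90% or more in every rat.

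Members differed little between rats. The median SD over the 10 rats was 2.61 percentage points in members, against 5.31 points in tiles at 80 to 95%, 10.3 points in tiles at 20 to 80% and 1.08 points in tiles under 20%. The SD of single members ran from 0.462 to 9.51 points. A tile with a mean so near 100% has little room to vary, and by construction the largest differences between the lines that the rule leaves room for are -12.5 points (HCR below LCR) and 8.33 points (HCR above LCR).

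The HCR rats had slightly higher levels over the members, with overlap between the lines. Averaged over the 4892 tiles, HCR rats 1, 11, 15 and 19 were at 96.5%, 96.6%, 96.6% and 96.5%, and LCR rats 12, 18, 22, 24, 26 and 30 at 96.3%, 96.5%, 96.5%, 96.3%, 96.1% and 96.1%. The HCR mean was 96.6% ± 0.0779 (SD, n = 4) and the LCR mean 96.3% ± 0.196 (SD, n = 6), which differ by 0.277 points. LCR rat 22 was above HCR rats 1 and 19, and LCR rats 26 and 30 were the lowest. No test is given, since the level is what the tiles were selected on. The whole range over the 10 rats was 0.579 points, beside 4.02 points in tiles at 80 to 95% and 7.39 points over all complete tiles of chromosomes 1 to 20. The order of the rats also differed between the 2 sets. HCR rat 15 had the highest mean in members at 96.6% and 45.6% over all tiles, where 5 of the other rats were higher, while HCR rat 19 and LCR rat 24 were the highest over all tiles (50.7% and 49.2%) without leading the members.

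**Figure D1:**
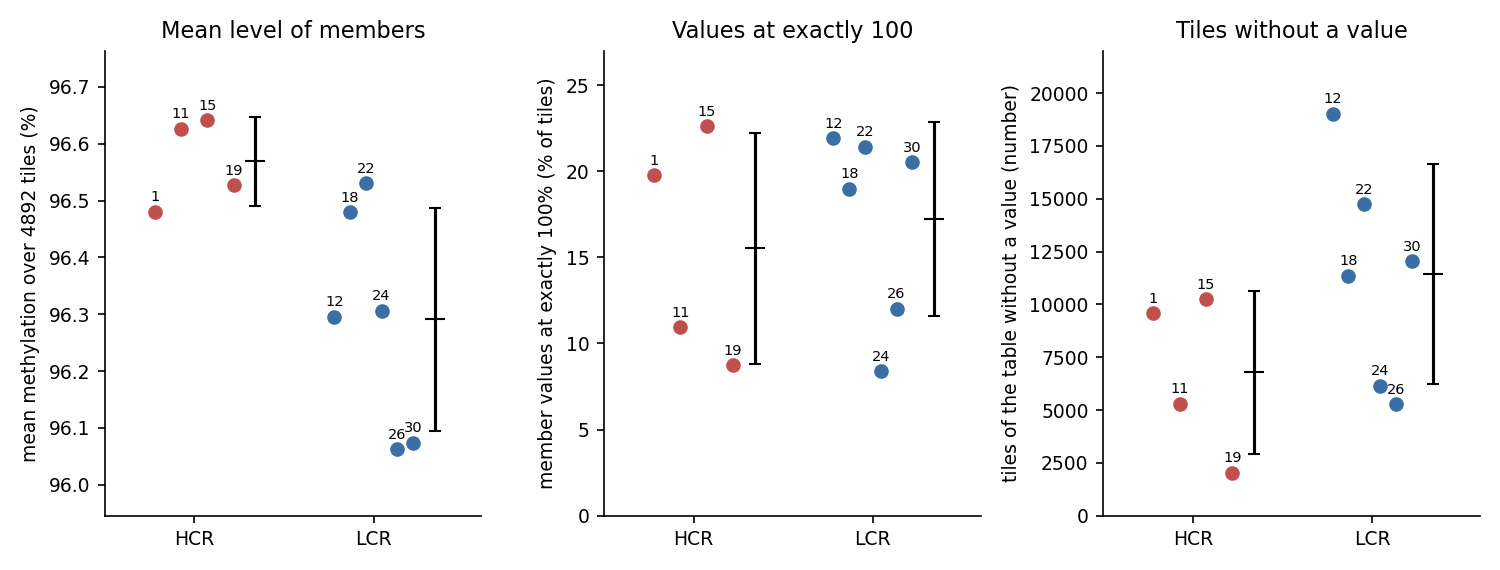
Each numbered point is a rat, HCR left and LCR right, with the line mean ± SD beside the points. The panels show the mean level over the 4892 members (%, on an axis that does not start at 0), the share of member values at exactly 100 (%), and the number of tiles of the whole table without a value. Rats 11, 19, 24 and 26 have the lowest shares at 100 (8.38% to 12.0%) and the fewest tiles without a value (2023 to 6147).

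Values of exactly 100, meaning that every call in the tile was methylated, made up 8090 of the 48920 member values (16.5%). The share was 19.8%, 10.9%, 22.6% and 8.75% in HCR rats 1, 11, 15 and 19. It was 21.9%, 18.99%, 21.4%, 8.38%, 12.0% and 20.5% in LCR rats 12, 18, 22, 24, 26 and 30. The lines overlapped over nearly their whole ranges, with an HCR mean of 15.5% ± 6.72 (SD, n = 4) and an LCR mean of 17.2% ± 5.64 (SD, n = 6), and the difference of -1.69 points became 0.572 without HCR rat 19. The rats instead fell into sets of 4 and 6 that held both lines. HCR rats 11 and 19 and LCR rats 24 and 26 had shares of 8.38% to 12.0%, and the other 6 rats had 18.99% to 22.6%. The same 4 rats had the fewest tiles without a value in the whole table, 5295 and 2023 in HCR rats 11 and 19 and 6147 and 5287 in LCR rats 24 and 26, while the other 6 had 9592 to 19022. The part of sampling depth in the share at 100 was not tested.

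The share at or above 95% was 76.2% ± 2.47 (SD, n = 4; range 73.2% to 78.4%) in HCR rats and 71.7% ± 2.09 (SD, n = 6; range 68.5% to 73.9%) in the LCR group, 4.45 points apart and with overlap. Among the member values below 100, HCR rats averaged 95.9% ± 0.328 (SD, n = 4) and LCR rats 95.5% ± 0.317 (SD, n = 6). Values under 80% numbered 13 of 19568 in HCR rats (0.0664%) and 33 of 29352 in LCR rats (0.112%). They followed the split of the rats seen at 100: HCR rats 11 and 19 had 1 each and LCR rats 24 and 26 had 0 and 2, while the other HCR rats had 6 and 5 and the other LCR rats 4 to 11. In tiles at 80 to 95%, values of exactly 100 made up only 1.14% to 5.20% of a rat's values.

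No member was at 100 in all 10 rats. In 1730 members (35.4%) no rat was at 100, in 1054 a single rat was, in 742 there were 2 such rats, and the number of members fell with each further rat to 6 members with 9 rats at 100. These 6 were chosen for description after their values were seen. The member with the highest mean of all, 99.8%, was among them, on chromosome 1 from 20014001 to 20015000, with all HCR rats at 100% and LCR rat 24 alone below, at 98.4%. The other 5 lay on chromosomes 2, 4, 7, 9 and 13, and their single lower value was 95.7% in HCR rat 1, 97.4% in HCR rat 11, 94.8% in HCR rat 19, 96.1% in LCR rat 22 and 98% in HCR rat 11. Members with 5 or more rats at 100 (384 tiles) had a median SD of 3.35 points, against 1.95 points in those with none. The tiles that most often read 100 were thus the more variable ones, and the part of sampling depth in this was not tested.

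Tiles chosen on 9 rats give the level in a rat that the choice did not use. For each rat in turn, the tiles with a mean of at least 95% over the other 9 were taken, and the left-out rat was read. Its mean in these tiles was 94.9% to 96.2%, and 59.97% (LCR rat 30) to 73.5% (HCR rat 19) of its values were at 95% or more. It was under 80% in 0.0611% to 1.65% of them and under 50% in 0 to 5 tiles, the lowest single value being 32.2% in LCR rat 30. The left-out rat was thus at 80% or more in nearly all of these tiles, but often under the 95% limit.

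HCR and LCR rats were compared in every tile of the table with limma, a linear model with a shared estimate of spread, and the Benjamini-Hochberg adjustment ran over all 176004 tiles that were tested. The median member difference, HCR minus LCR, was 0.340 points (quartiles -0.839 and 1.42). HCR was higher in 2817 members (57.6%) and LCR in 2075, beside 65.6% higher in HCR over all complete tiles of the same chromosomes, and 17.7% with the mean of every rat set equal. That step takes 1.91 points off every HCR minus LCR difference, more than the upper quartile of the members, so the lower share follows from the step itself. A difference of at least 5 points was met in 83 members (1.70%), 38 higher and 45 lower in HCR, against 23.7% of tiles at 80 to 95%. The rule fixes the mean of these rats, so a narrower spread of differences follows from the choice and is given as a description.

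**Figure D2:**
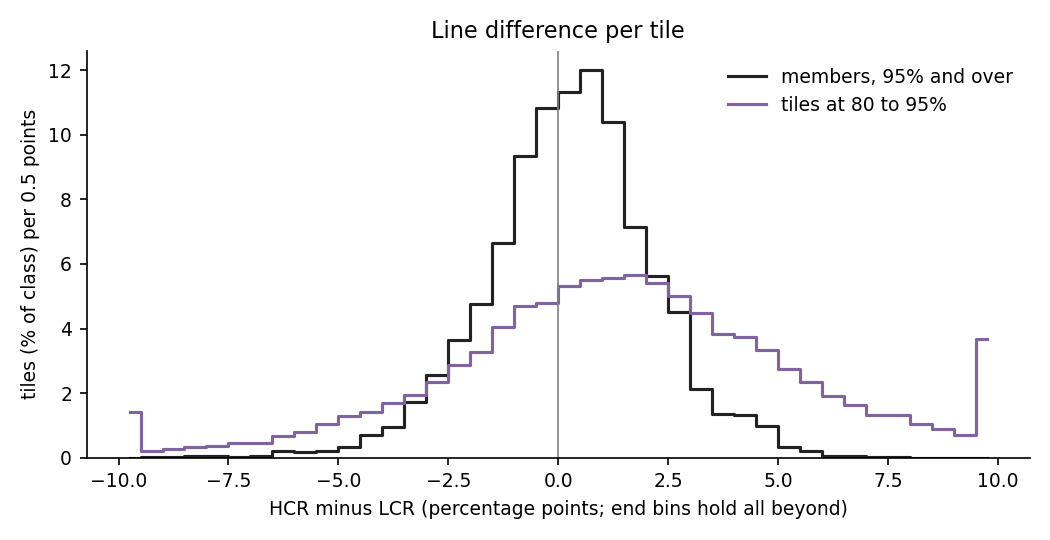
The horizontal axis is the difference HCR minus LCR in percentage points, the end bins holding all tiles beyond, and the vertical axis the percentage of tiles per bin of 0.5 points. The black line, the 4892 members, is narrow around its median of 0.340 points, and the violet line, the 29731 tiles at 80 to 95%, is broad, with 23.7% of tiles at 5 points or more in either direction.

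No member passed both limits for a call, an adjusted p under 0.1 with 5 points or more between the lines, which 151 tiles of the table (0.0858%) passed. This holds for limma on percent values. By its own test on counts, at the same nominal limits, the study called far more regions than limma did here. It lists members among its significant regions, 14 of them in the rows read here. The lowest limma adjusted p of a member was 0.292. At an unadjusted limma p under 0.05 there were 116 members (2.37%), 51 higher and 65 lower in HCR, where the table as a whole had 7.18%, and on the logit scale 104 of 157 such members were higher in HCR. At an unadjusted p under 0.005 with 5 points there were 4, all lower in HCR, which is 0.0818% of the members beside 1.03% of the table. That direction depended on the scale, since on the logit scale 4 such members were higher and 3 lower in HCR. The 4 HCR rats all lay above the 6 LCR rats in 31 members (0.634%; 1.53% of the table) and all below them in 14 (0.286%; 0.367% of the table). All of these shares were below those of the table, and the rule itself narrows how far a member can differ, less so where HCR is the lower line. In the 45 members without overlap the median size of the difference was 4.29 points and the largest 7.31 points.

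The 10 members with the smallest limma p at 5 points or more were examined rat by rat, and 8 of them were lower in HCR. The rule leaves room for -12.5 points in that direction and for 8.33 points in the other. A limit of 5 points therefore keeps tiles lower in HCR more readily, so no direction is read from this count. The first lies on chromosome 17 from 72468001 to 72469000. HCR rats 1, 11, 15 and 19 were at 94.5%, 90.2%, 93.0% and 92.7%, and the LCR rats had a lowest value of 97.6%, a median of 98.96% and a highest value of 100%. The lines did not overlap, and the difference was -6.24 points (SE 1.41, adjusted p = 0.292, limma; 0.135 to 0.538 over the alternatives). The second, on chromosome 11 from 20842001 to 20843000 and 737 kb from the nearest tile under 20%, had no value at 100 in any rat. It was at 88.5%, 91.1%, 93.7% and 93.2% in the HCR rats, against 96.8% to 98.7% (median 97.9%) in the LCR rats, again without overlap (-6.18 points, SE 1.46, adjusted p = 0.321, limma; 0.153 to 0.517 over the alternatives).

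In other members of this set, LCR rats sat at the ceiling and some HCR rats below it. On chromosome 2 from 223682001 to 223683000, all 6 LCR rats were at 100%, while HCR rats were at 100%, 89.1%, 85.7% and 91.2% (-8.51 points, adjusted p = 0.426, limma). On the same chromosome from 160260001 to 160261000, HCR rats 1, 11 and 15 were at 86.4%, 88.5% and 85.7% and HCR rat 19 at 100%, against 97.0% to 100% (median 100%) in LCR rats. Rat 19 thus stood with the other line in this tile. The difference was -9.12 points (adjusted p = 0.448, limma) and without HCR rat 19 it was -12.4 points with an adjusted p of 0.0718, the only member that passed the limits with any 1 rat left out (adjusted p 0.0718 to 0.677 over the alternatives). On chromosome 3 from 121205001 to 121206000, HCR rats were at 96.4%, 89.9%, 85.2% and 88.7% and LCR rats at 95.9% to 100% (median 98.6%), so that HCR rat 1 lay within the range of the LCR rats. The remaining members lower in HCR, on chromosomes 9, 3 and 14, differed by -6.42, -5.81 and -5.43 points, each with overlap.

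Both members of the set that were higher in HCR had no overlap. The one on chromosome 2 from 5384001 to 5385000 lies at an exon of Rhobtb3, which encodes a protein with BTB domains. HCR rats were at 98.3%, 100%, 100% and 100%, and LCR rats at 85.0% to 97.4% (median 92.2%), a difference of 7.31 points (SE 2.19, adjusted p = 0.482, limma; 0.273 to 0.784 over the alternatives). The one on chromosome 7 from 90507001 to 90508000 had 100%, 100%, 100% and 97.8% in HCR rats and 88.1% to 97.4% (median 92.9%) in LCR rats, a difference of 6.51 points (adjusted p = 0.504, limma; 0.354 to 0.784 over the alternatives). In both tiles the gap between the lowest HCR and the highest LCR value was under 1 point.

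**Figure D3:**
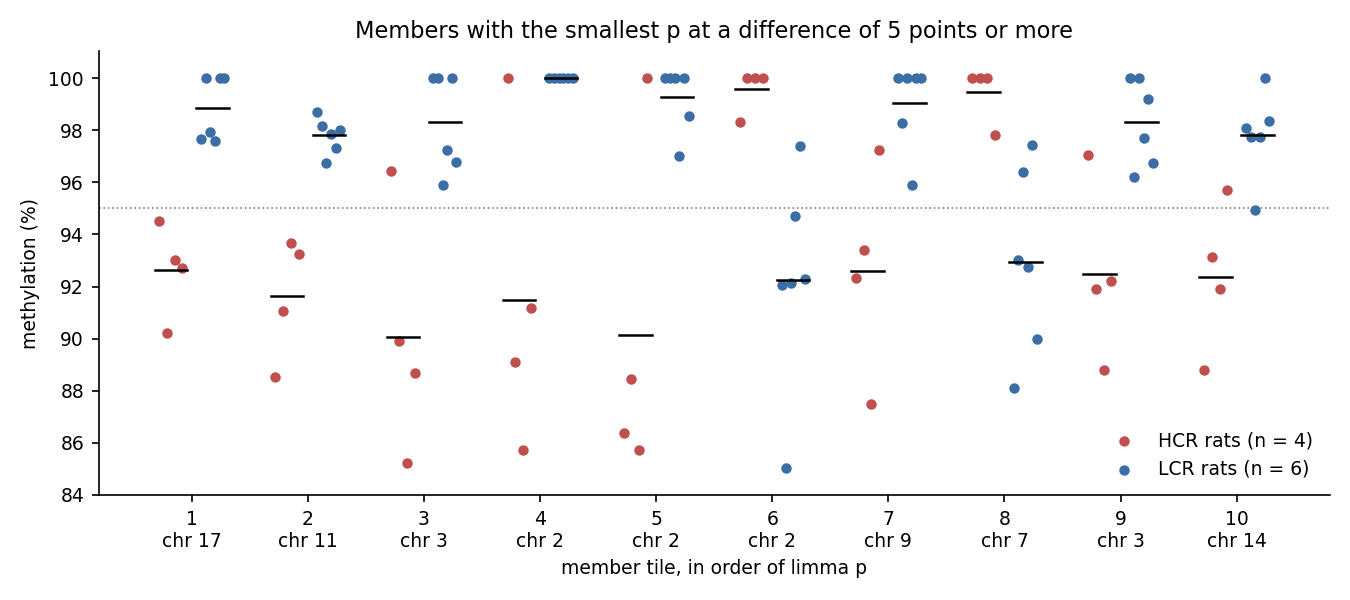
Methylation (%, on an axis that does not start at 0) of the 10 members with the smallest limma p at 5 points or more, in order of p and marked by chromosome. Each point is a rat, HCR left and LCR right of each position, black bars are line means and the dotted line is the 95% limit. In 8 tiles HCR is lower, the direction in which the rule leaves more room, and in these the LCR rats crowd near 95% to 100%.

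The most variable members owed their SD to single rats. The SD was largest, at 9.51 points, on chromosome 14 from 17244001 to 17245000, where HCR rat 1 was at 69.4%, the lowest value of any member, and the other HCR rats at 99.1%, 97.4% and 100%, with LCR rats at 94.7% to 100% (median 100%). On chromosome 2 from 185577001 to 185578000, HCR rats were at 94.0% to 100% and LCR rat 12 was at 70.0%, with the other LCR rats at 91.4% to 100%. On chromosome 16 from 80646001 to 80647000, HCR rat 1 was at 70.4%, the other HCR rats at 93.8% to 100% and the LCR rats at 96.2% to 100%. No line difference could be read from these tiles, whose limma adjusted p was 0.725 or more.

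Members usually lay well apart from the nearest tile under 20%. The distance between tile centres had a median of 36 kb in members (quartiles 13 and 106.25 kb), close to the 33 kb of tiles at 80 to 95% (quartiles 11 and 114 kb) and above the 16 kb of tiles at 20 to 80%. Directly adjacent to a tile under 20% were 66 members (1.35%), beside 1.63% of tiles at 80 to 95% and 8.56% of tiles at 20 to 80%. Within 10 kb there were 19.6% of members, 23.3% of tiles at 80 to 95% and 38.8% of tiles at 20 to 80%. The members thus differed from intermediate tiles far more than from the next lower class. No test is given, since neighbouring tiles are not independent and distances depend on where the enzyme cuts.

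Where a member did touch an unmethylated tile, the step could span nearly the whole scale. The largest was on chromosome 8, where the member from 20671001 to 20672000 had a mean of 98.3% and the tile just before it a mean of 1.38% (0.496% to 2.10% over the 10 rats). The member was at 97.3% to 100% in HCR rats and 94.6% to 100% in LCR rats, so this boundary held in all rats of both lines. Further steps of 96.7, 96.4 and 96.4 points were on chromosomes 15, 6 and 11, at the members starting at 48570001, 25080001 and 82566001. The neighbouring tiles had means of 0.579%, 0.590% and 0.938% there. At the other extreme, the members farthest from a tile under 20% were on chromosome 13, from 5493001 to 5494000 and from 5330001 to 5331000, at 5301 and 5138 kb.

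Neighbours of members were themselves highly methylated at short range. Complete tiles directly beside a member numbered 1441, each tile being counted once for every member it touches. Of these, 28.2% were at 95% or more, 49.4% at 80 to 95%, 17.8% at 20 to 80% and 4.58% under 20%, with a median level of 91.6%. Around tiles at 80 to 95% the adjacent median was 84.9% and 8.96% were at 95% or more, while around tiles at 20 to 80% only 1.56% were. The mean level around members was 82.3% at 1 kb, 61.5% at 2 kb, 60.1% at 5 kb and 51.2% at 20 kb, which lay above that around tiles at 80 to 95% at each of these distances (74.5%, 57.2%, 52.0% and 47.6%). Most of the likeness was therefore between tiles that touch. As many as 72.6% of members had no complete tile beside them, against 75.3% of tiles at 80 to 95%. The share was 57.6% over all complete tiles of these chromosomes and 31.7% in tiles under 20%. The part of RRBS sampling in these shares was not tested.

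**Figure D4:**
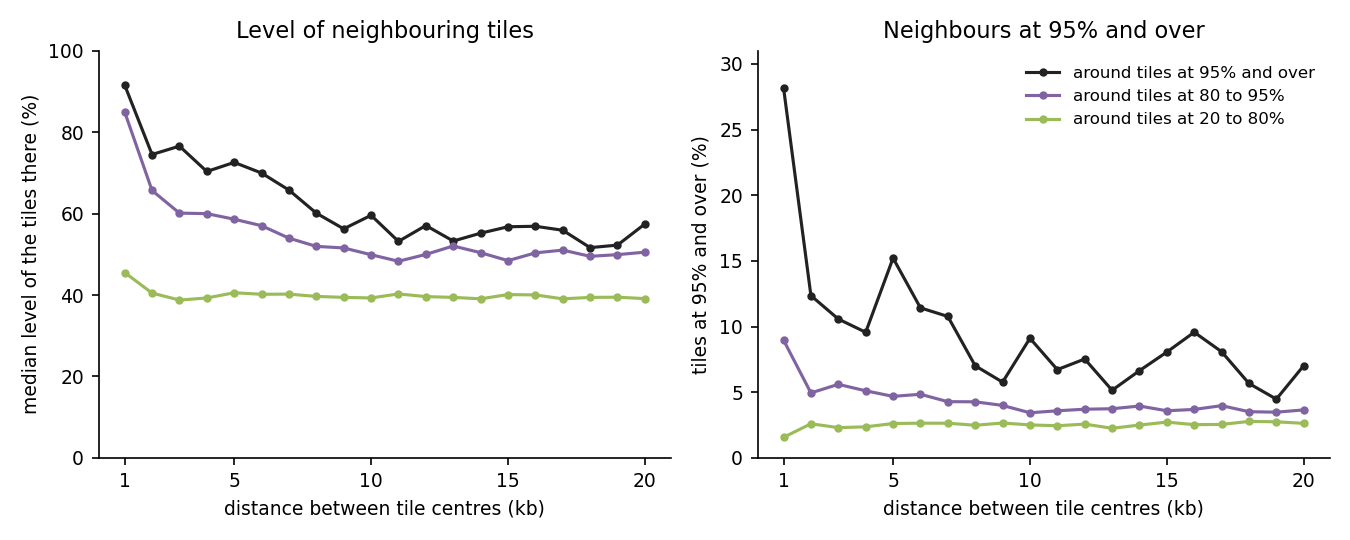
The horizontal axis is the distance between tile centres in kb. The left panel gives the median level (%) of the complete tiles found there and the right panel the percentage of them at 95% or more, around tiles at 95% and over (black), at 80 to 95% (violet) and at 20 to 80% (green). The black lines are highest at 1 kb, with a median of 91.6% and 28.2% of tiles at 95% or more.

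Most members stood alone. In all, 4501 were single, and 391 (7.99%) stood in 188 runs of adjacent members, of which 180 were pairs. The longest run, of 5 tiles, was on chromosome 2 from 221380001 to 221385000, with means of 97.6%, 95.4%, 95.3%, 95.9% and 96.8%. Along it, HCR rats averaged 97.2%, 96.02%, 93.9%, 95.1% and 96.8% and LCR rats 97.8%, 94.96%, 96.3%, 96.5% and 96.7%, so that the sign of the difference changed from tile to tile. Of the 1026 complete tiles that touch a member without being one, 3 passed the limits of an adjusted p under 0.1 and 5 points. Over all tested tiles, 151 of 176004 (0.0858%) did. An unadjusted limma p under 0.005 with 5 points was met in 16 of the 1026 (1.56%), beside 1.03% of all tested tiles. That share was 1.12% in tiles at 80 to 95%, 1.17% in tiles at 20 to 80% and 0.699% in tiles under 20%. Whether tiles beside members differ from other tiles in these shares was not tested.

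The share of complete tiles at 95% or more differed between chromosomes. It was lowest on chromosomes 10 (2.38%), 12 (2.98%) and 5 (3.32%) and highest on chromosomes 11 (5.76%), 18 (5.63%), 15 (5.43%) and 2 (5.39%). Chromosomes with a larger share of tiles under 20% had a smaller share at 95% or more (Pearson's r = -0.639, Spearman's rank correlation = -0.615 over 20 chromosomes). These are descriptive values over chromosomes that share all libraries, and the shares of 1 chromosome are parts of a whole. Among tiles at 80% or more, the part at 95% or more still ran from 11.1% on chromosome 10 to 18.1% on chromosome 18. On the X chromosome, outside the rule, 115 of 3806 complete tiles (3.02%) reached 95%.

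Genes could be given to some members only. Annotation came from 2 lists of the study. From its regions correlated with maximal oxygen uptake, 662 rows were read. From its regions that differed between the lines, the first 1999 rows were read and later rows were not used here, so other members may also be listed. These rows covered 14 members, 10 of them intergenic and 4 exonic, and they list tiles that the study chose on these same rats. Besides Rhobtb3, the genes were Stim1, Celsr2 and Zfp322a. At Stim1, the calcium sensor of the endoplasmic reticulum, the tile on chromosome 1 from 156812001 to 156813000 was at 97.9%, 98.8%, 95.7% and 98.8% in HCR rats and 84.8% to 100% (median 94.1%) in LCR rats (4.04 points, adjusted p = 0.812, limma). At Celsr2, an adhesion receptor of the cadherin family that acts in planar cell polarity, the tile on chromosome 2 from 196051001 to 196052000 was annotated as a CpG island and lay 2 kb from a tile under 20%. It was at 96.5%, 95.6%, 95.4% and 87.5% in HCR rats and 95.6% to 98.8% (median 97.7%) in LCR rats (-3.88 points, adjusted p = 0.723, limma). At Zfp322a, a zinc finger gene, the tile on chromosome 17 from 41780001 to 41781000 was at 100% in all HCR rats and in 4 LCR rats, with LCR rats 12 and 24 at 87.0% and 83.5%. In each of these 3 genes the lines overlapped.

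A further 31 members lay between listed exon, intron or promoter tiles of the same gene and hence inside its span, in 22 genes. This placement was made after the values were seen. Their means were 95.02% to 99.1%, 20 of 31 were higher in HCR, and differences ran from -3.21 to 5.85 points. In none did the lines fail to overlap, and none had an unadjusted limma p under 0.05 (lowest adjusted p 0.703). Among all members, 0.920% had no overlap and 2.37% were under that p, beside 1.88% and 6.84% of all complete tiles of these chromosomes. Counts of 0 among 31 tiles therefore say nothing particular about them. The genes with more than 1 such member were F8, the coagulation factor VIII gene, with 4 of the 6 complete tiles in its listed span, Aig1 with 3, and Camk1d, Cmip, Pced1b and Sox5 with a pair each. The 4 tiles of F8 had means of 95.1%, 97.2%, 98.03% and 97.4% and differed between the lines by -1.12 to 1.17 points.

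In most of these genes the lowest listed tile was far below the members, with F8 (91.0%) and Prim2 (88.1%) as exceptions, and the listed tile need not lie near the member. Listed tiles, unlike members, need not have a value in every rat. At some genes, such as Map7, Sorl1 and Disc1, their line means rest on fewer rats than those of the members. In Map7, which encodes a microtubule-associated protein, the member on chromosome 1 from 15021001 to 15022000 was at 100%, 100%, 100% and 97.7% in HCR rats and at 93.3% to 100% (median 100%) in LCR rats, while the lowest listed tile of the gene was at 15.8% in HCR and 2.24% in LCR. In Map3k5, a stress-activated kinase of the MAPK cascades, the member had an HCR mean of 96.7% ± 0.997 (SD, n = 4) and an LCR mean of 95.6% ± 2.29 (SD, n = 6), while the lowest listed tile was at 36.6% in HCR and 25.5% in LCR. Both genes therefore combined a member that hardly differed with a listed tile that the study had chosen for its difference.

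Similar pairs of values were found in Sorl1, Sox5 and Disc1, with the listed tile again higher in HCR. The lowest listed tile was instead lower in HCR in Ptprb (25.3% in HCR, 60.5% in LCR) and Camk1d (45.1% in HCR, 61.0% in LCR). In Sorl1, a sorting receptor for the amyloid precursor protein, the HCR mean of the member was 96.1% and the LCR mean 95.3%, beside 80.4% (HCR) and 56.95% (LCR) in the lowest listed tile. In Sox5, a transcription factor of neural development, the members averaged 96.4% and 97.6% in HCR and 95.3% and 95.3% in LCR rats, beside 40.9% (HCR) and 26.7% (LCR) in the lowest listed tile. Disc1, a scaffold protein of neurons, had a member at 99.2% (HCR) and 96.7% (LCR) and a lowest listed tile at 58.9% (HCR) and 45.3% (LCR). The placed members with the largest positive and negative differences were in Chd7 and Bmp7. In Chd7, a chromatin remodeler, the member was at 100%, 100%, 94.9% and 100% in HCR rats and at 85.1% to 100% (median 92.7%) in LCR rats (5.85 points, adjusted p = 0.733, limma). In Bmp7, a growth factor of the TGF-beta superfamily, the member was at 92.1%, 94.4%, 97.1% and 93.2% in HCR rats and at 95.9% to 99.3% (median 97.3%) in LCR rats (-3.21 points, adjusted p = 0.703, limma). In both genes the ranges of the lines overlapped.

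**Figure D5:**
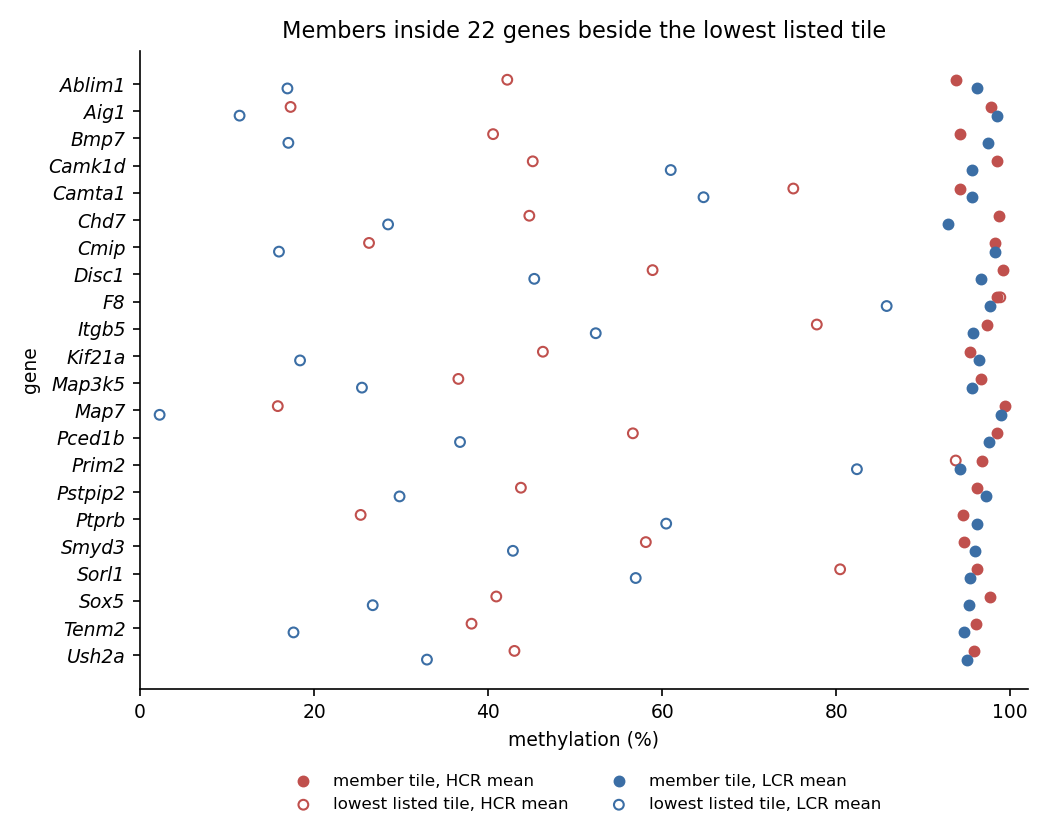
Mean methylation (%) of HCR (red) and LCR (blue) rats in 22 genes, with filled points for the member tile (the highest, where a gene has several) and open points for the lowest tile of that gene listed by the study. The filled points lie between 92.9% and 99.4%, while the open points spread down to 2.24%, in LCR rats at Map7, and lie at differing levels in the 2 lines, as those tiles were selected for a difference. Listed tiles need not have a value in every rat, so open points can rest on fewer rats than filled points.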

How the data were processed

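Hippocampal RRBS libraries of 4 HCR and 6 LCR rats were grouped by their labels. The deposited values are percent methylation per 1000 bp tile. Per the methods and the submitters' processing notes, reads were trimmed by the authors (Trim Galore 0.6.10), aligned with Bismark and Bowtie2 to the mRatBN7.2 (rn7) build, and CpGs were filtered on coverage and tiled in methylKit. The file used holds no counts, so the precision of each value is unknown and the count test of the methods was not run. The authors' comparisons were not used, beyond stating which members they list, and gene annotation came from their tables without its values.

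Members and lists were chosen with earlier results of these data known. The lines were compared with limma 3.58.1 (R 4.3.3, mean-variance trend, no covariate, at least 3 values per line, Benjamini-Hochberg adjustment), leaving out 28 tiles with 1 value in every rat. The method was also run on simulated data, with changes planted only in tiles of intermediate level. That run does not show how limma behaves near the ceiling, where the members lie. Summaries used Python 3.11.15, pandas 2.3.3, NumPy 2.4.6 and Matplotlib 3.10.9. Tiles were named by rule: called members, the 10 smallest p at 5 points, the 3 nearest on each side of 95%, the 4 largest steps to a tile under 20%, the 2 farthest from one, the longest run and the 3 largest SD. No genome or annotation of this build was used, so sequences, CpG content, promoters, cell type markers and 14 gene lists were not examined, apart from Map3k5, the 1 of 299 list genes with a placed member. Alternatives were the logit scale, no trend, complete tiles only, equal rat means, other limits and leaving out each rat.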

Additional observations from a re-analysis of the deposited data

Results flagged for a closer look

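Among 60 sets of rats examined in the tiles named by rule (HCR and LCR apart), 9 held a rat far from the others of its line by Dixon's ratio, where chance alone marks about 1 in 20 sets of unselected, untied values. That rate does not apply here: 4 of the 9 sets belong to the 3 tiles named for the largest SD, and in others the remaining rats tie at 100%. Of these, 5 were HCR and 4 LCR sets. In the Rhobtb3 tile on chromosome 2 at 5384001, HCR rat 1 was at 98.3% and the other HCR rats at 100%, and on chromosome 7 at 90507001, HCR rat 19 was at 97.8% and the others at 100%. In the tiles just inside the 95% limit, HCR rat 1 was at 88.2% on chromosome 14 at 7465001, and HCR rat 11 at 93.6% on chromosome 1 at 8572001. In the member beside an unmethylated tile on chromosome 15 at 48570001, LCR rat 18 was at 92.0%. In the most variable member, on chromosome 14 at 17244001, HCR rat 1 was at 69.4% and LCR rat 24 at 94.7%, the other LCR rats being at 100%. LCR rat 12 was at 70.0% on chromosome 2 at 185577001. LCR rat 18 was at 96.2% on chromosome 16 at 80646001. No rat appeared in more than 3 of the 9 sets.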

How the results depend on the processing

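The number of members depended on its limits: 16903 tiles at 90%, 379 at 98%, and 8428 with at least 3 values per line instead of a value in every rat. The count of 4 members at an unadjusted limma p under 0.005 with 5 points became 7 on the logit scale, 4 higher and 3 lower in HCR. It was 17 with rat means set equal (all lower in HCR, since that step takes 1.91 points off each difference) and 60 with a limit of 90%. With each rat left out it was 3 to 13, 13 being met without HCR rat 1 and without HCR rat 19. Calls at an adjusted p under 0.1 were 0 to 1 with each rat left out, the 1 being the chromosome 2 tile at 160260001 without HCR rat 19. The mean difference of 0.277 points was 0.725 at a limit of 90% and 0.00989 at 98%. The median distance of 36 kb was 49 kb to a tile under 10% and 62 kb to a tile under 5%. The difference in the share at 100 was -4.05 to 0.572 points with each rat left out, -0.540 at a limit of 90% and -6.31 at 98%. The cause of these changes was not tested beyond the changed limits themselves. Members at an unadjusted p under 0.05 numbered 89 to 190 over the alternatives, and the 147 with rat means set equal were all lower in HCR by the same step. Each library decides much at this size: 4 HCR rats set the HCR mean, values without counts hide how many reads lie behind a 100, and the ceiling limits how far members can differ. No paired analysis was made, since the rats are separate animals and the design names no pairs of HCR and LCR rats. For the 10 single tiles of smallest p, all values under an alternative but 1 (139 in number) kept their direction and side of the limit.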
